A study of Mus musculus with 47 samples.

Results

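Striatal RNA of mice that carry 1 targeted copy of Ccdc82 and no Q140 allele (Ccdc82+/-) was compared with that of wild type mice (WT). The 16 libraries of the comparison were all those titled Ccdc82+/- or WT without Q140, and the series holds 47. The Ccdc82+/- group and the WT group each held 8 mice, 4 of each sex, all 6 months old and of the C57BL background. A further 3 groups of 8 are used where named: Q140 Ccdc82+/- and Q140 mice, which both carry an Htt allele with an expanded CAG repeat (Q140, a knock-in model of Huntington's disease), and Ccdc82-/- mice, in which both copies of Ccdc82 are targeted. The sixth group, 7 Q140 Ccdc82-/- mice with both changes, serves to pick out genes that change with Q140 and in counts over all libraries. All 47 libraries enter 1 model, so every comparison shares its estimate of the spread. The labels give the genotype of each mouse and not the kind of mutation made in Ccdc82, and they name no treatment or pooling of mice. The design pairs the Q140 allele with targeted copies of Ccdc82, and Ccdc82+/- against WT asks what 1 targeted copy does in the absence of Q140.

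Ccdc82 encodes a protein with a coiled-coil domain whose role in neurons is little described. The human gene lies at a locus that has been associated with the age of onset of Huntington's disease. The striatum is made up mostly of medium spiny neurons, inhibitory projection cells that fall into a direct pathway class with the dopamine receptor Drd1 and an indirect pathway class with the dopamine receptor Drd2. A heterozygous loss of function leaves a working copy of the gene, so the mRNA of the gene itself is the first readout and that of its neighbours and of the rest of the transcriptome the next.

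Ccdc82 (ENSMUSG00000079084) lies on the forward strand of chromosome 9 from 13246955 to 13292520 in GENCODE gene models of the build GRCm38. Jrkl, a gene of the pogo transposase family, lies head to head with it on the reverse strand from 13242607 to 13245829. The 208 bases before the RefSeq start of Ccdc82 are shown because Ccdc82, the targeted gene, was the single gene whose mRNA passed the test. They cover chr9:13246709-13246916 on the forward strand of GRCm38.p6, with the GC box letters GGGCGG, to which Sp family factors bind, in capitals.

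Ccdc82 promoter: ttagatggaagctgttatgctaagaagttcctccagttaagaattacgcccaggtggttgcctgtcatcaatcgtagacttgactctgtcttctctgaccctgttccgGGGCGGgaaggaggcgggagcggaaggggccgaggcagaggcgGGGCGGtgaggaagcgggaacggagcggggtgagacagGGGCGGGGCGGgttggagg

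The stretch is 61.1% G and C and holds 4 matches to GGGCGG, all on the forward strand, of which the last pair overlap. Searched on both strands, the letters occurred in 35.7% of the 32841 RefSeq promoter windows of 300 bases, and 1.35% of them held at least the 6 matches that the full Ccdc82 window holds. The gap between the RefSeq starts of Ccdc82 and Jrkl is 1175 bases. What this stretch does was not tested, and no value here concerns it.

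Libraries of the pair held 44.6 to 58.6 M counts in Ccdc82+/- and 41.3 to 50.1 M in WT, and Xist and the Y-linked gene Ddx3y matched the sex label in all 47 libraries. In a principal component analysis of the 16 libraries the first component, with 44.3% of the variance, separated the sexes. On the second component, with 13.5%, the library Ccdc82+/- female 4 stood apart at 21.9, against -10.3 to 5.21 in the others. On the third component, with 9.70%, WT male 1 lay lowest at -14.9. Ccdc82, the result that follows, had a log2 fold change of -0.50 without Ccdc82+/- female 4 and -0.51 without WT male 1. Defining genes of the striatum, among them Ppp1r1b, Drd1 and Drd2, were present in all 16 libraries. No pair of libraries agreed within sampling noise, and each label names a separate sample of its group.

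Ccdc82 mRNA was lower in mice with 1 targeted copy, and no other gene passed the test. Levels are given as counts per 1 M counts of the library (CPM), with library sizes adjusted by TMM (trimmed mean of M values). Ccdc82 had a lowest value of 7.70, a median of 8.49 and a highest value of 9.19 CPM in Ccdc82+/- mice, against 10.6, 12.3 and 12.9 CPM in WT mice. All 8 Ccdc82+/- libraries lay below all 8 WT libraries. The mean was 8.42 ± 0.519 CPM in Ccdc82+/- and 12.01 ± 0.773 CPM in WT (SD, n = 8 each), so that Ccdc82+/- mice held 70.1% of the WT level, with an exact two-sided permutation p of 0.000155, the smallest that 12870 arrangements of 8 against 8 can give. In the model across all genes the log2 fold change was -0.51 ± 0.07 (SE), with a 95% interval of -0.65 to -0.38 and an adjusted p of 1.03e-05 (edgeR quasi-likelihood test). These values rest on 347 to 465 reads per library in Ccdc82+/- and 459 to 635 in WT. In bulk tissue, less RNA per cell and fewer cells that express the gene cannot be told apart.

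**Figure D1:**
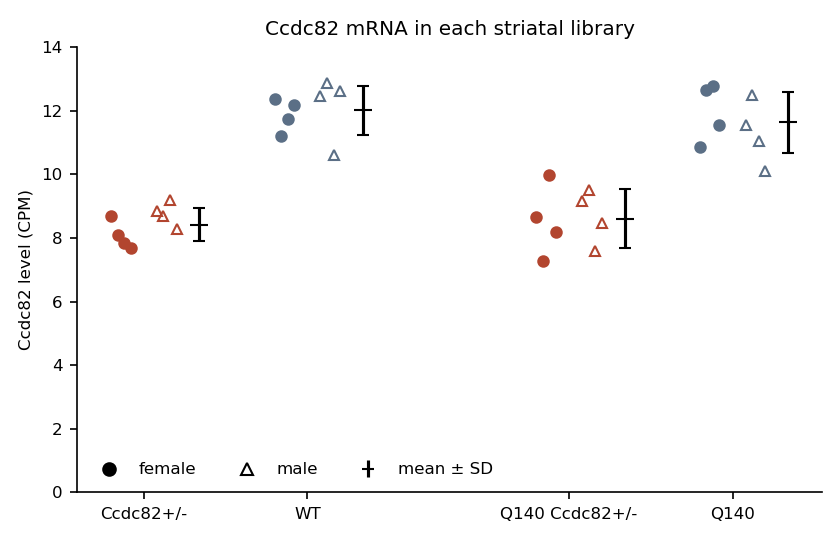
Ccdc82 mRNA (CPM, linear axis from 0) in each library of Ccdc82+/- and WT mice and of Q140 Ccdc82+/- and Q140 mice; filled circles are females, open triangles males, and bars the mean ± SD of 8 libraries. The Ccdc82+/- libraries sit between 7.70 and 9.19 CPM, all below the WT libraries at 10.6 to 12.9 CPM.

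Both sexes showed the lower Ccdc82 level. In females Ccdc82 averaged 8.08 ± 0.433 CPM in Ccdc82+/- and 11.9 ± 0.521 CPM in WT (SD, n = 4 each), which is 68.1% of WT. In males it averaged 8.76 ± 0.372 CPM in Ccdc82+/- and 12.1 ± 1.03 CPM in WT (SD, n = 4 each), which is 72.1% of WT. The groups did not overlap in either sex, and each exact two-sided permutation p was 0.0286, the smallest that 4 against 4 allows. The difference between the sexes was -0.08 ± 0.12 on the log2 scale (females minus males, SE), with a 95% interval of -0.33 to 0.17 and an unadjusted p of 0.522 (edgeR, genotype by sex model). The single library of WT mice nearest to the Ccdc82+/- range was a male at 10.6 CPM.

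The well addresses in the labels place the 16 libraries on 6 plate columns, 3 of which hold libraries of both genotypes. On plate column 2 Ccdc82 had 7.85 and 8.69 CPM in Ccdc82+/- libraries, against 12.9 CPM in the WT library. On column 4 the Ccdc82+/- library had 8.10 CPM, against 10.6 to 12.6 CPM in 4 WT libraries. On column 6 the 3 Ccdc82+/- libraries had 7.70 to 9.19 CPM, against 11.2 CPM in the WT library. The lower level was thus seen within each shared column, and with plate column in the model the log2 fold change of Ccdc82 was -0.45 (adjusted p = 0.000112, edgeR).

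Relative to gene length, Ccdc82 is an mRNA of middling level in the striatum. Its level in the authors' deposited FPKM was 4.45 ± 0.265 in Ccdc82+/- and 6.37 ± 0.428 in WT (SD, n = 8 each). This exceeded the group mean of 54.4% of the tested genes in Ccdc82+/- and of 62.6% in WT. Mice with both copies targeted kept reads of the gene. Ccdc82 had a lowest value of 3.92, a median of 4.39 and a highest value of 5.87 CPM in Ccdc82-/- mice. It was lower in Ccdc82-/- than in Ccdc82+/- by -0.88 ± 0.07 on the log2 scale (SE; adjusted p = 2.52e-12), and lower in Ccdc82-/- than in WT by -1.40 ± 0.07 (adjusted p = 1.32e-20, edgeR), comparisons that share the Ccdc82+/- and the WT libraries with the one above. Counts are summed over the whole gene, and which exons the reads of Ccdc82-/- mice cover was not analysed here.

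Across the transcriptome 1 of 19193 tested genes, Ccdc82, passed an adjusted p of 0.05, a share of 0.00521%. At an unadjusted p under 0.05 there were 628 genes, or 3.27% (edgeR), and 626 with the DESeq2 Wald test, which also called Ccdc82 alone. The median log2 fold change of all tested genes was -0.00075, with 9481 genes above 0 and 9712 below. The same model, with the same number of mice in each arm, called 6655 genes (34.7%) in Q140 against WT. Complete separation of the 8 and 8 libraries occurred in 2 genes (0.0104%), Ccdc82 and Gm37478, an unclassified gene model on chromosome 1 that was singled out after its values were seen. Gm37478 had 0.362 to 0.624 CPM in Ccdc82+/- and 0.655 to 1.099 CPM in WT, from 16 to 31 and 30 to 45 reads, and did not pass the test (log2 fold change -0.63 ± 0.16, SE, n = 8 each; adjusted p = 0.998, edgeR).

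**Figure D2:**
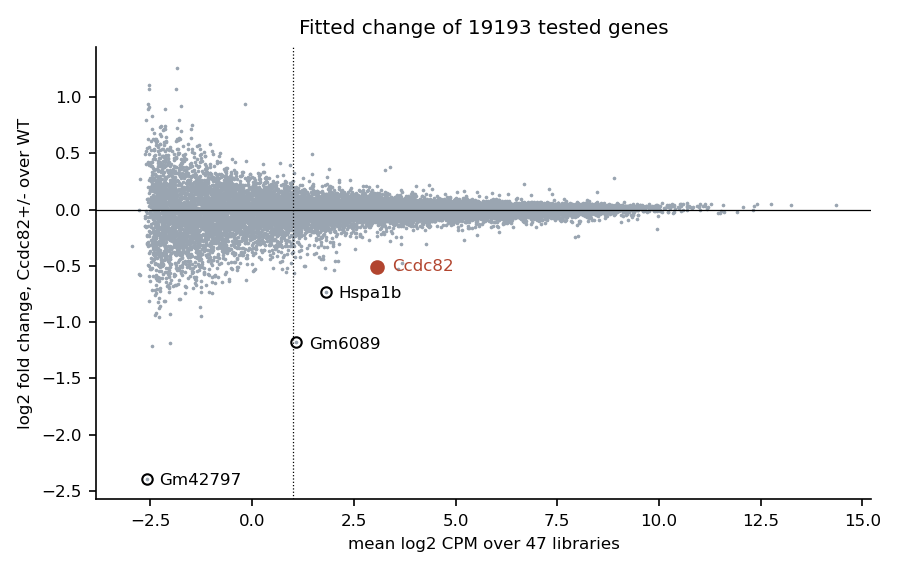
Fitted log2 fold change of Ccdc82+/- over WT for each of the 19193 tested genes (one dot each) against its mean log2 CPM over 47 libraries; the filled circle is Ccdc82, open circles are 3 named genes that did not pass, and the dotted line marks a mean log2 CPM of 1. Right of that line the dots form a narrow band around 0, with Ccdc82 below it at -0.51.

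How narrowly a change was bounded depended on the level of the gene. For the 13938 genes that averaged a log2 CPM of 1 or more, the median half-width of the 95% interval was 0.086 on the log2 scale and the median size of the fitted change was 0.028. The whole interval lay within a 1.2-fold change for 12628 of these genes (90.6%) and within a 1.5-fold change for 99.3%. Ccdc82 was the only one of them whose interval lay wholly outside a 1.2-fold change. Fitted changes over 1.5-fold were seen for 2 of these genes, the processed pseudogene Gm6089 at -1.18 ± 0.69 and the inducible heat shock gene Hspa1b at -0.73 ± 0.47 (log2 fold change, SE), neither of which passed (adjusted p = 0.998 each, edgeR). Hspa1b ranged from 0.939 to 6.85 CPM in Ccdc82+/- and from 0.629 to 9.98 CPM in WT, so that its groups overlapped almost entirely. For the 5255 genes below a mean log2 CPM of 1 the median half-width was 0.406, and 54.3% had an interval within a 1.5-fold change. The intervals of the others reached beyond that size, so such changes could go undetected in them. All these intervals take 1 gene at a time. A gene passed only after adjustment over 19193 genes, which asks for a larger change than the half-width.

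The adjusted p closest to the threshold after Ccdc82 belonged to Gm42797, a long intergenic non-coding RNA on chromosome 5 that lies below the level at which genes were named and was singled out after its values were seen. It had 0 to 3 reads per library and 10 in all in Ccdc82+/-, against 2 to 12 per library and 53 in all in WT. The groups overlapped at 2 to 3 reads. Its log2 fold change was -2.39 ± 0.47 (SE) with an adjusted p of 0.0569 (edgeR) and 0.0591 with DESeq2. Over all alternatives its adjusted p ranged from 0.00165 to 0.992. It passed with plate column in the model (0.00165) and without Ccdc82+/- male 4 (0.0206), WT female 3 (0.00714) or WT male 4 (0.0315). In Q140 Ccdc82+/- mice it had 64 reads in all, against 53 in Q140 mice, and in Ccdc82-/- mice 43.

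None of the 19 other genes that the naming rule selected in order of p, from those averaging a log2 CPM of 1 or more, passed the test, and each had an adjusted p of 0.998 (edgeR). Among the genes with higher values in Ccdc82+/-, Kirrel3, an adhesion molecule of synapses, had 66.9, 72.9 and 80.2 CPM (lowest, median and highest) in Ccdc82+/-, against 60.2, 67.3 and 72.8 CPM in WT, with a log2 fold change of 0.13 ± 0.04 (SE). Notch3, a Notch receptor of mural cells, had 20.1, 24.3 and 25.9 CPM in Ccdc82+/-, against 17.7, 21.4 and 24.6 CPM in WT (0.18 ± 0.05). The ranges of both genes overlapped between the genotypes. Tor1a, which encodes the ATPase torsinA of the endoplasmic reticulum and is mutated in an inherited dystonia, had 21.81 to 23.0 CPM in Ccdc82+/- and 20.1 to 21.81 CPM in WT, ranges that met at their ends (0.08 ± 0.03). Gm10123, a processed pseudogene whose reads may belong to its parent gene, had 138.2 to 153.2 CPM in Ccdc82+/- and 132.9 to 141.4 CPM in WT (0.07 ± 0.02). Pcdhga1, a gamma protocadherin that shares its constant exons with the rest of its cluster, had 7.89 to 10.9 CPM in Ccdc82+/- and 6.41 to 8.53 CPM in WT (0.35 ± 0.11). Tmem203, Fibp, the RNA cyclase gene Rtca, Ecsit and the luteinising hormone receptor gene Lhcgr made up the rest, with log2 fold changes of 0.08 to 0.33.

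Among the genes with lower values, Zfp182, an X-linked zinc finger gene, had 14.04, 15.5 and 16.7 CPM (lowest, median and highest) in Ccdc82+/-, against 16.3, 17.4 and 19.7 CPM in WT, with a log2 fold change of -0.17 ± 0.04 (SE). Commd2, a member of the COMM domain family, had 7.76, 8.18 and 8.47 CPM in Ccdc82+/-, against 8.28, 9.15 and 10.3 CPM in WT (-0.16 ± 0.04). The genotypes overlapped in a narrow range for both genes. Msi2, an RNA-binding protein of the Musashi family, had 114.5 to 123.4 CPM in Ccdc82+/- and 119.3 to 136.4 CPM in WT (-0.09 ± 0.03). Setbp1, which encodes a nuclear protein that binds SET, had 26.5 to 32.5 CPM in Ccdc82+/- and 29.3 to 36.7 CPM in WT (-0.12 ± 0.04). Mak and Nek11, both protein kinase genes, the potassium channel gene Kcnu1, the neurexophilin gene Nxph2 and Gm43681 had log2 fold changes of -0.32 to -0.17.

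The same step of 1 targeted copy was made in Q140 mice, in a comparison that shares no library with Ccdc82+/- against WT. There too 1 of 19193 genes (0.00521%) passed, and it was Ccdc82. Ccdc82 had 7.27, 8.56 and 9.99 CPM (lowest, median and highest) in Q140 Ccdc82+/- mice, against 10.1, 11.6 and 12.8 CPM in Q140 mice, and the ranges did not overlap. This was 74.0% of the Q140 level, with a fitted log2 difference of -0.43 ± 0.07 (SE) and an adjusted p of 0.000627 (edgeR). The Ccdc82 effect in Q140 mice minus that without Q140 was 0.08 ± 0.09 (SE), with a 95% interval of -0.11 to 0.27 and an unadjusted p of 0.398.

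Of the 19 genes that the naming rule selected in order of p, 5 had the same sign in Q140 Ccdc82+/- against Q140 and none passed there. Of these genes 2 had an unadjusted p under 0.05 in that comparison, where the share over all genes was 5.74%, and both took the opposite sign. Gm10123 had 154.3 to 162.0 CPM in Q140 Ccdc82+/- and 157.3 to 175.9 CPM in Q140, a log2 fold change of -0.08 that contrasts with 0.07 without Q140. Setbp1 had 33.7 to 37.9 CPM in Q140 Ccdc82+/- and 30.6 to 36.0 CPM in Q140, a log2 fold change of 0.09 that contrasts with -0.12 without Q140. Both genes were picked by their p without Q140, so their values there may be overstated. In Q140 against WT, Gm10123 was itself higher (log2 fold change 0.27, adjusted p = 2.72e-14, edgeR). In Ccdc82-/- against WT, which shares the WT libraries, the log2 fold change was 0.07 for Gm10123 and -0.11 for Setbp1, and neither passed. Over the 13938 genes averaging a log2 CPM of 1 or more, 48.9% had the same sign in both comparisons, and the fold changes had a Pearson r of -0.018 across genes, which are not independent replicates. Of the 404 genes among them with an unadjusted p under 0.05 without Q140, 159 (39.4%) had the same sign in Q140 mice.

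**Figure D3:**
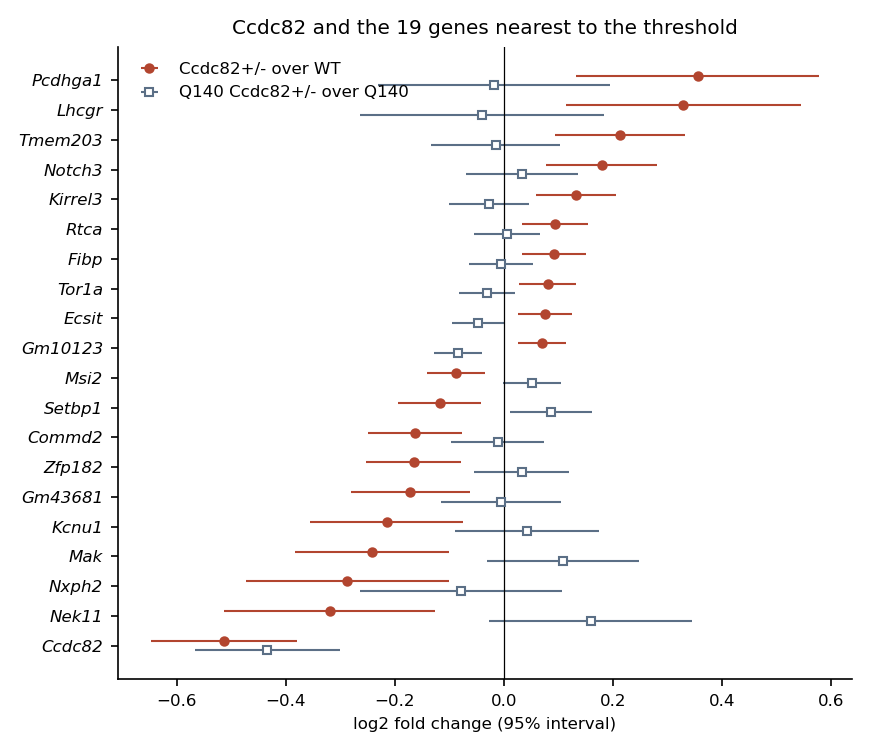
Log2 fold change with its 95% interval in Ccdc82+/- over WT (filled circles) and in Q140 Ccdc82+/- over Q140 (open squares). Genes are Ccdc82 and the 19 that the naming rule selected in order of p from those averaging a log2 CPM of 1 or more. The 2 symbols of Ccdc82 lie side by side at -0.51 and -0.43, whereas 14 of the other genes have symbols on opposite sides of 0.

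A test of the difference between the backgrounds found 0 of 19193 genes (0.0%) at an adjusted p under 0.05 and 1011 at an unadjusted p under 0.05 (edgeR). The smallest adjusted p was 0.185, for Gm10123 and Gm42797. DESeq2 called 1 gene, Gm10123, at -0.16 (adjusted p = 0.00813), against the 0.185 of edgeR. A test of the difference of the Ccdc82+/- effect between sexes found 0 of 19714 genes and 1099 at an unadjusted p under 0.05, with a smallest adjusted p of 0.722 for Slc27a2, a fatty acid transporter and acyl-CoA synthetase. Slc27a2 had a log2 fold change of 0.43 ± 0.11 (SE) in females and -0.25 ± 0.11 in males, a difference of 0.68 that became 0.79 with an adjusted p of 0.0451 without Ccdc82+/- female 4. Within females and within males, 1 of 19714 genes (0.00507%) passed in each, Ccdc82 in both (adjusted p = 0.00259 in females and 0.0494 in males, edgeR).

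None of the genes that define medium spiny neurons passed the test, and their intervals were narrow. Ppp1r1b, which encodes the dopamine-regulated phosphatase inhibitor DARPP-32, had 2482, 2754 and 3005 CPM (lowest, median and highest) in Ccdc82+/-, against 2517, 2678 and 2855 CPM in WT. Its log2 fold change was 0.03, with a 95% interval of -0.04 to 0.11. Pde10a, the striatal cyclic nucleotide phosphodiesterase, had 2295, 2622 and 2794 CPM in Ccdc82+/-, against 2342, 2605 and 2967 CPM in WT (-0.01, interval -0.10 to 0.09). Adcy5, the main adenylyl cyclase of these neurons, had a log2 fold change of 0.03. The 2 groups overlapped over nearly their whole range for each of these genes.

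No listed gene of the direct or the indirect pathway passed either. Drd1 had 374.5, 392.4 and 428.5 CPM in Ccdc82+/-, against 366.9, 388.9 and 409.3 CPM in WT (log2 fold change 0.02, 95% interval -0.04 to 0.09). Tac1, the substance P precursor of direct pathway neurons, had 188.7 to 243.8 CPM in Ccdc82+/- and 199.0 to 214.1 CPM in WT (0.04). Drd2 had 219.3, 237.5 and 259.4 CPM in Ccdc82+/-, against 219.6, 236.9 and 265.6 CPM in WT (0.02, interval -0.06 to 0.09). Penk, the enkephalin precursor of indirect pathway neurons, had 1675, 1721 and 1818 CPM in Ccdc82+/-, against 1580, 1677 and 1813 CPM in WT (0.04, interval -0.04 to 0.12). Adora2a, the adenosine receptor of the same cells, had a log2 fold change of 0.04. In Q140 against WT, a comparison that shares the WT libraries, the fitted log2 fold changes were -1.03 for Penk, -0.81 for Pde10a, -0.74 for Adora2a, -0.63 for Adcy5, -0.60 for Ppp1r1b, -0.57 for Drd1, -0.55 for Drd2 and 0.17 for Tac1.

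**Figure D4:**
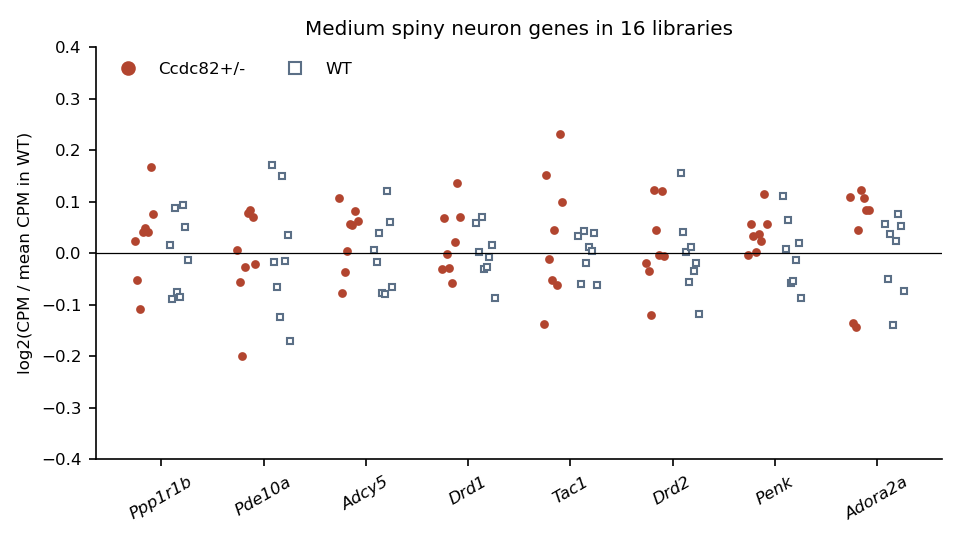
Level of 8 medium spiny neuron genes in each of the 16 libraries, as log2 of CPM over the mean CPM of the gene in WT; filled circles are Ccdc82+/- libraries and open squares WT libraries. For every gene the 2 clouds overlap around 0.

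Lists of genes were described by their counts and their median log2 fold change, to be read beside the median of -0.00075 of all tested genes. They held 349 distinct genes, of which 342 were tested. Ccdc82 apart, 0 of them passed, and 7 of the others had an unadjusted p under 0.05, beside 3.27% of all tested genes. Of the 24 lists, 18 had a median within 0.05 of 0.

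Of 25 tested genes of shared medium spiny neuron identity, 15 were above 0, with a median of 0.02 and a range of -0.09 (Ryr1) to 0.09 (Ddit4l). The medians were 0.02 for 10 direct pathway genes and 0.04 for 8 indirect pathway genes. In females alone the median was -0.05 for shared identity genes, -0.014 for direct and -0.018 for indirect pathway genes. In males alone these medians were 0.05, 0.010 and 0.079. Markers of striatal interneurons had a median of -0.01, with 10 of 15 below 0 and a range of -0.24 (Vip) to 0.16 (Th). Sst, the somatostatin gene of 1 interneuron class, had 88.3 to 109.8 CPM in Ccdc82+/- and 82.7 to 100.02 CPM in WT (0.09, unadjusted p = 0.0488, adjusted p = 0.998, edgeR). Without WT male 1 the log2 fold change of Sst was 0.06 (unadjusted p = 0.157, edgeR).

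Glial lists lay as close to 0. The 19 microglia genes had a median of 0.03, with 17 above 0, and the largest fitted change was that of Trem2, a microglial lipid receptor, at 0.10 ± 0.05 (SE). Homeostatic astrocyte genes had a median of -0.02, with 13 of 16 below 0, and reactive astrocyte genes a median of 0.01 over 13 tested. The 17 genes of mature oligodendrocytes had a median of -0.02, with 16 below 0. Their summed level ran from 6772 to 8829 CPM in Ccdc82+/-, where female 4 was highest, and from 6365 to 8001 CPM in WT. Oligodendrocyte precursor genes had a median of 0.0030 over 10 genes, with 5 above 0 and 5 below. The median was 0.08 in females alone and -0.06 in males alone. The lowest precursor gene was Vcan at -0.17. The highest was Cspg4, which encodes the NG2 proteoglycan, with 22.05 to 27.4 CPM in Ccdc82+/- and 21.5 to 25.9 CPM in WT (0.07, unadjusted p = 0.0308, adjusted p = 0.998, edgeR). Endothelial and mural genes had a median of -0.0017 over 17.

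The lists farthest from 0 mark tissue next to the striatum and are low in these libraries. Choroid plexus genes had a median of -0.48, with 8 of 9 below 0, and summed to 25.6 to 46.4 CPM in Ccdc82+/- and 24.0 to 71.2 CPM in WT. The highest value was that of WT male 1, and the next highest WT library had 35.5 CPM. The median was -0.33 without WT male 1, -0.94 without Ccdc82+/- female 2 and -0.07 with plate column as a factor. It was -0.04 in females alone and -1.04 in males alone. Ependymal cell genes had a median of -0.34, with 8 of 8 below 0, and summed to 12.5 to 38.5 CPM in Ccdc82+/- and 18.5 to 53.5 CPM in WT. Foxj1, the factor that drives motile cilia of these cells, had 7.18, 9.68 and 16.1 CPM in Ccdc82+/-, against 7.50, 12.01 and 21.4 CPM in WT (-0.31 ± 0.21, SE). Cortical excitatory neuron genes had a median of -0.06, thalamic or pallidal genes of -0.02 and blood genes of 0.14. Between libraries of a genotype the mean log2 CPM of a list had an SD of 0.40 for choroid plexus, 0.65 for ependymal and 1.90 for blood genes. The genes of a list are not independent, so counts of genes below 0 are not separate observations. How far such neighbouring tissue takes part in other values was not tested.

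**Figure D5:**
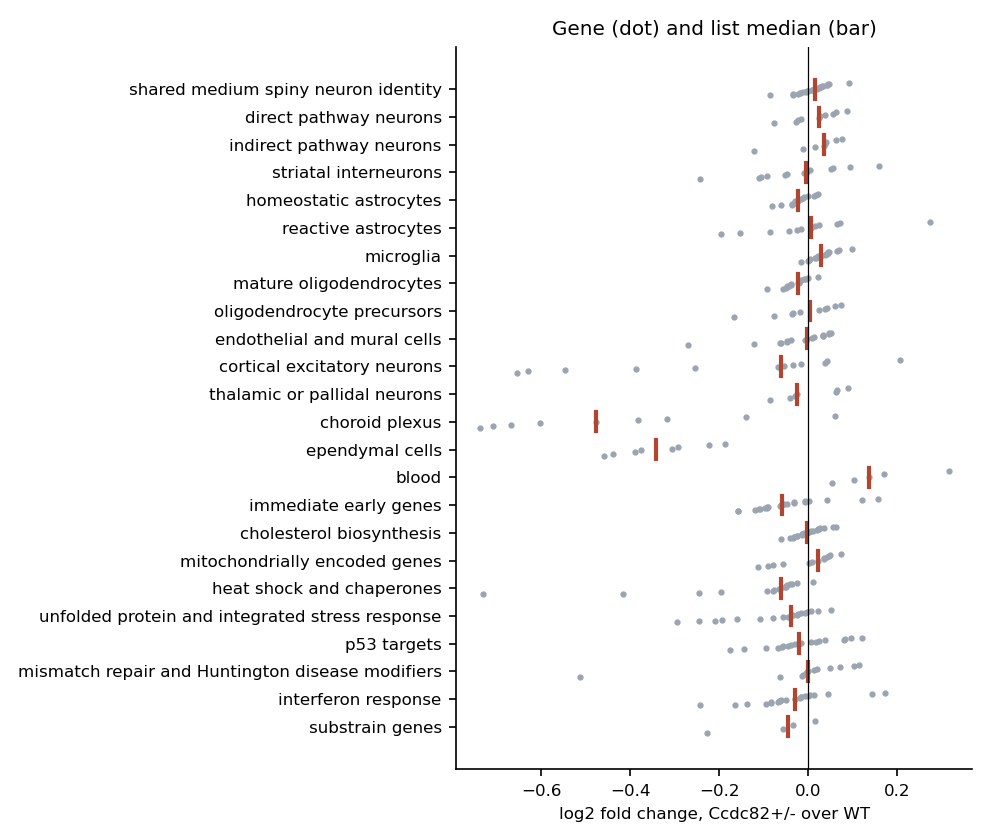
Log2 fold change of Ccdc82+/- over WT for each tested gene (dot) of 24 lists, with the list median as a bar. Bars lie near 0 except for choroid plexus (-0.48), ependymal cells (-0.34) and blood (0.14), and the dot at -0.51 in the Huntington disease modifier list is Ccdc82.

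Genes of stress and activity responses did not pass either. Immediate early genes had a median of -0.06, with 18 of 22 below 0, and summed to 1596 to 2796 CPM in Ccdc82+/- and 1893 to 2845 CPM in WT. Ier5, an immediate early response gene, had 61.9 to 68.9 CPM in Ccdc82+/- and 64.5 to 76.8 CPM in WT (-0.09, unadjusted p = 0.0369, adjusted p = 0.998, edgeR). Heat shock and chaperone genes had a median of -0.06, with 16 of 17 below 0, and Hspa5, the chaperone BiP of the endoplasmic reticulum, had a log2 fold change of -0.24 ± 0.18 (SE). Genes of the unfolded protein and integrated stress response had a median of -0.04, with 16 of 19 below 0. The lowest was Atf3 at -0.29 and the highest Asns, the asparagine synthetase gene, at 0.05 ± 0.02. The median was -0.02 for 19 p53 targets, -0.0033 for 23 genes of cholesterol biosynthesis, 0.02 for 13 mitochondrially encoded genes and -0.03 for 23 interferon response genes. Ifit2, one of these interferon genes, had 5.42 to 7.30 CPM in Ccdc82+/- and 6.55 to 8.21 CPM in WT (-0.14, unadjusted p = 0.0495, adjusted p = 0.998, edgeR).

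Ccdc82 apart, no gene of the Huntington's disease list passed. Htt had 203.5, 217.6 and 222.6 CPM (lowest, median and highest) in Ccdc82+/-, against 206.8, 216.1 and 229.8 CPM in WT, a log2 fold change of -0.01 with a 95% interval of -0.06 to 0.05. In the list of 14 mismatch repair and disease modifier genes the median was -0.0012. The genes that changed with Q140 in mice with both Ccdc82 copies targeted were taken from Q140 Ccdc82-/- against Ccdc82-/-, which shares no library with Ccdc82+/- against WT and called 33.2% of genes. The 3360 genes that rose there had a median log2 fold change of 0.0021 in Ccdc82+/- against WT, with 52.2% above 0. The 3007 genes that fell there had a median of 0.0071, with 56.8% above 0. Over all tested genes 49.4% were above 0, and 0 of the 6367 genes passed in Ccdc82+/- against WT.

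No gene around Ccdc82 passed. Of 25 other annotated genes within 1 Mb, 6 were tested and 0 passed, with a median log2 fold change of -0.01. Jrkl, the divergent neighbour, averaged 9.72 ± 0.695 CPM in Ccdc82+/- and 9.55 ± 0.944 CPM in WT (SD, n = 8 each), a log2 fold change of 0.02 with a 95% interval of -0.08 to 0.13. Maml2, a co-activator of Notch signalling that starts 5.44 kb downstream of Ccdc82, averaged 9.37 ± 0.994 CPM in Ccdc82+/- and 9.45 ± 0.770 CPM in WT (-0.01). The phosphoinositide phosphatase gene Mtmr2, the centrosome gene Cep57, Fam76b and the stress-inducible gene Sesn3 had log2 fold changes of -0.02 to 0.0044. Among all 45 other tested genes within 5 Mb, none passed and the smallest adjusted p was 0.998 (edgeR).

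Genes known to vary between C57BL/6 substrains or within their colonies did not pass. Nnt averaged 21.3 ± 0.672 CPM in Ccdc82+/- and 21.8 ± 1.62 CPM in WT (SD, n = 8 each), and Wdfy1 had a log2 fold change of -0.06. Ide, the insulin-degrading enzyme gene, which lies in a segment known to vary in copy number among C57BL/6J mice, took 2 separate ranges. It had 66.8 CPM in 1 Ccdc82+/- library and 39.3 to 43.3 CPM in the other 7. In WT it had 57.4 to 67.5 CPM in 4 libraries and 38.7 to 43.6 CPM in the other 4. Its fitted change was -0.23 ± 0.11 on the log2 scale (SE), with an adjusted p of 0.998 (edgeR). Over the 47 libraries 7 lay above 50 CPM and 40 below, with nothing between 47.1 and 57.4 CPM, a bound set after the values were seen.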

How the data were processed

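Striatal RNA of 47 mice was sequenced as stranded TruSeq libraries, per the labels' protocols. The deposited count table holds the authors' raw read counts for 48795 genes, of which 33998 had a count, and the deposited FPKM table holds values the authors scaled by gene length and depth, used here for the level of Ccdc82 only. The submitters' processing notes list HTSeq 0.12.3, STAR 2.7.5c and SAMtools 1.10, and mm10 and GRCm38 as builds; settings and annotation release are not given in the sources used here. Positions came from GENCODE gene models of GRCm38 and sequences from RefSeq GRCm38.p6.

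Groups, sexes, replicate numbers and plate wells came from the labels, and all 47 libraries entered the model. Counts were tested in R 4.3.3 with the quasi-likelihood test of edgeR 4.0.16: filterByExpr on the 6 groups (19193 genes left), TMM scaling, robust dispersions, 1 coefficient per group and a sex term. A model with 1 coefficient per genotype and sex (19714 genes) tested the sexes. Adjusted p-values follow Benjamini and Hochberg over all genes tested, and genes passed under 0.05. Intervals of 95% cover the spread between libraries as modelled; copies made by PCR are not separable from independent molecules. The labels name separate samples, and p-values take these samples as independent. The sample descriptions also carry a number that some samples share. Pairs of Ccdc82+/- males share one, whereas WT samples share none among themselves. WT female 4 carries the same number as Ccdc82+/- female 4, and some other WT samples share theirs with samples of other genotypes. What this number stands for is not stated, and it entered no model. Scripts were tested on simulated data.

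Named genes were up to 10 a direction that passed and averaged a log2 CPM of 1 or more, then genes in order of p up to 10. Htt, substrain genes, tested genes within 1 Mb of Ccdc82, called genes within 5 Mb and the 3 smallest p of each list were added. Some genes that this selects are not reported here. The medium spiny neuron genes given by library, the named genes, lists and tests were chosen with earlier results of these data known. Of the listed genes, Gpr52, Lcn2, Timp1, Cxcl10, Lhx9, Kcnj13 and Entpd4 were not tested. Alternatives were RLE factors, total counts, the Wald test of DESeq2 1.42.0, no low-count filter and no sex term. Further ones were a replicate block, plate column as a factor, the 16 libraries alone and each sex. Each Ccdc82+/-, WT, Q140 Ccdc82+/- or Q140 library was also left out in turn. Fold changes given for females or males alone are contrasts of the genotype by sex model of all 47 libraries, not fits to 1 sex. Replicate numbers did not pair the samples.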

Additional observations from a re-analysis of the deposited data

Results flagged for a closer look

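A library was set apart where its gap to the nearest of the 8 libraries of its group, divided by the range of the group, passed Dixon's 95% critical value. Chance marks about 1 in 20 groups, and 18 of 248 were marked, over 6 libraries. WT male 1 accounted for 6 of them. It was highest for summed choroid plexus markers (71.2 CPM, others 24.0 to 35.5 CPM), among them Sostdc1 (0.673 CPM, others up to 0.363 CPM) and Folr1 (0.736 CPM, others up to 0.415 CPM), and for Zfp182 (19.7 CPM, others 16.3 to 17.8 CPM). It was lowest for Sst (82.7 CPM, others from 92.4 CPM) and Asns (61.3 CPM, others from 67.5 CPM). Without this library the log2 fold change was 0.06 for Sst (0.09 with it), 0.03 for Asns (0.05 with it) and -0.14 for Zfp182 (-0.17 with it).

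Ccdc82+/- female 4 was highest for summed markers of mature oligodendrocytes (8829 CPM, others 6772 to 7449 CPM), for the myelin genes Mobp (1317 CPM, others up to 1059 CPM) and Ermn (98.1 CPM, others up to 81.3 CPM), and for the astrocyte neurotensin receptor gene Ntsr2 (76.9 CPM, others up to 67.1 CPM). WT female 4 was highest for the cortical neuron genes Neurod6 (0.830 CPM, others up to 0.363 CPM) and Neurod2 (1.37 CPM, others up to 0.568 CPM), and lowest for Rora (57.0 CPM, others from 64.2 CPM).

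Ccdc82+/- male 4 was highest for the erythroid gene Alas2 (1.55 CPM, others up to 0.703 CPM) and for Hspa1b (6.85 CPM, others up to 3.39 CPM). Ccdc82+/- male 1 was lowest for Klf4 (3.84 CPM, others from 6.06 CPM). Ccdc82+/- female 3 was highest for Ide (66.8 CPM, others up to 43.3 CPM) and so for the summed substrain genes (113.02 CPM, others up to 92.8 CPM). What sets these libraries apart was not tested.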

How the results depend on the processing

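Ccdc82 passed in Ccdc82+/- against WT under every alternative run, with a log2 fold change of -0.54 to -0.50 when a library was left out and -0.55 to -0.45 otherwise, an adjusted p of 3.25e-10 to 0.0494, and a level of 69.0% to 71.0% of WT without single libraries. The count of called genes was 1 except with plate column as a factor (2), and 1 to 2 without single libraries; the added gene was Gm42797 each time. Genes at an unadjusted p under 0.05 numbered 455 to 1395. The interaction gave 1 gene with DESeq2 (Gm10123), 1 with plate column (Gm42797) and 0 to 1 without single libraries (Gm10123 without Ccdc82+/- male 1). The sex difference gave 0 to 1 without single libraries. The counts of 1 in Q140 Ccdc82+/- against Q140 and of 1 in both Ccdc82-/- comparisons held under all alternatives run. For the Ccdc82-/- comparisons these left out only Ccdc82+/- or WT libraries, and no Ccdc82-/- library. The cause of these changes was not tested. The median half-width of the 95% interval was 0.406 below a mean log2 CPM of 1 and 0.086 at or above it.

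Replicate numbers did not pair the samples: correlations of same-numbered Ccdc82+/- and WT libraries ran from -0.45 to 0.25, and 1 of 8 correlated best with its own number. With the replicate block 1 gene passed, Ccdc82 at -0.51, and 645 had an unadjusted p under 0.05.

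For other named genes 2506 of 2572 values kept their sign and their side of the threshold, and 4 (Gm42797) passed in addition. In 62 the sign turned, all for genes that passed under no setting. Gm42797 and Neurod6 were too low to be tested in the 16 libraries alone. In females alone the log2 fold change was -0.018 for Actn2, 0.029 for Cep57, -0.024 for Chrm4, -0.0073 for Gng7, 0.11 for Maml2, 0.033 for Mobp, -0.0048 for mt-Co1, -0.0029 for Pdgfrb, -0.010 for Penk, 0.063 for Sesn3 and -0.0085 for Tac1. In males alone it was 0.012 for Dnaja1, 0.019 for Fam76b, 0.00018 for Htt, 0.072 for Irf9, -0.047 for Jrkl, 0.097 for Kdr, 0.035 for Msmo1, -0.043 for Mtmr2, 0.036 for Nnt, -0.25 for Slc27a2, 0.041 for Wdfy1 and 0.016 for Zmat3. With plate column it was 0.023 for Fam76b, 0.010 for Maml2, -0.0072 for Pdgfrb and 0.0017 for Sesn3. It was 0.0023 for Fam76b with no filter, -0.016 for Hba-a1 with the replicate block and -0.00081 for Mtmr2 with total counts. Without single libraries the range was -0.0051 to 0.80 for Alas2, -0.037 to 0.0011 for Cep57, -0.019 to 0.030 for Fam76b, -0.12 to 0.49 for Hba-a1, -0.056 to 0.53 for Hbb-bs, -0.014 to 0.0079 for Htt, -0.0058 to 0.052 for Jrkl, -0.043 to 0.025 for Maml2, -0.0039 to 0.027 for Mtmr2 and -0.032 to 7.6e-06 for Sesn3. Of 624 list medians 616 moved by less than the SD of the list mean between libraries. That bound was wide for choroid plexus (0.40), ependymal (0.65) and blood genes (1.90), so the count says little about these lists.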

Other observations

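Of the 13938 genes that averaged a log2 CPM of 1 or more, 404 had an unadjusted p under 0.05 in Ccdc82+/- against WT. Of these, 22 also had one in Q140 Ccdc82+/- against Q140, where 5.74% of all tested genes did, and 7 of the 22 had the same sign in both. The share of counts from mitochondrially encoded genes was 5.81% ± 0.158 in Ccdc82+/- and 5.71% ± 0.131 in WT (SD, n = 8 each).

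Ide took its higher range, above 50 CPM, in 1 of 8 Q140 Ccdc82+/- libraries, 0 of 8 Q140, 0 of 8 Ccdc82-/- and 1 of 7 Q140 Ccdc82-/- libraries, beside the 1 of 8 Ccdc82+/- and 4 of 8 WT libraries given above. The values of these 7 libraries lay between 57.4 and 68.4 CPM.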
